A study of Mus musculus with 8 samples.

Results

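Acod1 and 9 genes that encode targets or responders of its product, itaconate, were followed through a mouse glioblastoma series. The set was chosen by name: Acod1 itself, the succinate dehydrogenase subunit genes Sdha and Sdhb, the sensor gene Keap1 and the transcription factor gene Nfe2l2, the Nfe2l2 target genes Hmox1, Nqo1, Gclm and Txnrd1, and Nfkbiz. All 10 were found among the 32502 genes listed in any of the 8 count tables. The table of the naïve KO library alone lacked a count for 1 of them, Acod1, and held the other 9.

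Drop-seq, which counts the 3′ ends of messenger RNA by unique molecular identifiers (UMIs), was run on suspensions of brain cells from C57BL/6 mice (C57BL/6N in the study's methods). By those methods the tumour-bearing samples came from the dissected tumour region. Mice with 2 functional copies of Irg1/Acod1 (+/+, WT) and mice without one (-/-, KO) received 500 GL261 glioma cells in the brain, at a site that the labels give as the right striatum and the study's methods as the frontal cortex, and gave 1 library each at the early (5 to 10 mm3), intermediate (20 to 25 mm3) and late (30 to 35 mm3) stage of tumour growth. The naïve library of each genotype came from untreated brain and names 2 mice in its title, so that there were 8 libraries and 1 sample in each group. By the study's methods the KO mice carry a cassette inserted in the stretch from exon 3 to exon 5 of the gene. The GL261 cells are a cell line that carries its own Acod1 in both host genotypes, and the host mice differed in sex between the genotypes at the early and intermediate stages. No ages are given for the mice.

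Aconitate decarboxylase 1, the product of Acod1, is a mitochondrial enzyme that turns the tricarboxylic acid (TCA) cycle intermediate cis-aconitate into itaconate. It is best known from macrophages exposed to lipopolysaccharide or interferons. Itaconate inhibits succinate dehydrogenase, and its electrophilic forms modify cysteines of KEAP1, the adaptor through which the transcription factor NRF2 (encoded by Nfe2l2) is degraded. NRF2 then drives antioxidant genes by binding antioxidant response elements. Nfkbiz encodes IκBζ, an inducible nuclear cofactor of NF-κB that sustains a second wave of inflammatory transcription and whose induction is limited by itaconate derivatives. These effects are on proteins, whereas the values given here are messenger RNA counts.

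By the study's methods the KO cassette lies in an interval of Acod1 from exon 3 to exon 5. Acod1 occupies chromosome 14 from 103046977 to 103056573 on the plus strand of GRCm38, and the annotated transcript Acod1-201 has 5 exons. Exon 4 is the only exon that lies wholly between exons 3 and 5 (chr14:103051320-103051525, plus strand, 206 bases, coding sequence). It is shown, from the GENCODE M21 transcripts and without capitals, because it is the stretch that the cassette interval contains.
Acod1 exon 4: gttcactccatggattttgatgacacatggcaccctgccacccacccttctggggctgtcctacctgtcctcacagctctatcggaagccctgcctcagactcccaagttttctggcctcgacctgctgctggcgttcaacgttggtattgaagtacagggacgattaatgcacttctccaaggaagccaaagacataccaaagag
Exon 5 follows with 2062 bases, of which 1065 lie after the stop codon, and a 3′ end count comes from there. Whether transcripts with exon 5 are still made from the KO allele was not tested. Acod1 UMIs in a library labelled KO were not used to check its label, and they do not measure functional enzyme. By qPCR the study could not detect Acod1 in cultured bone marrow-derived macrophages of KO mice. Why TAMs (tumour-associated microglia and macrophages) of KO libraries nevertheless held Acod1 UMIs here was not tested.

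The antioxidant response element core, searched as TGACNNNGC on both strands, was looked for in RefSeq windows of 250 bases before to 50 after each start site (GRCm38.p6). It was present for 3 of the 8 members with an entry, namely Gclm, Nfe2l2 and Txnrd1, and Hmox1 and Nfkbiz had no entry. Of all 27025 genes with a window, 13.99% held the same letters, as did 5 of 15 other NRF2 target genes. A match of these letters is a description and not a proven binding site. The stretches around the 3 matches are printed with the match in capitals. They lie at chr3:122245377-122245477 (plus strand, Gclm, match 134 bases before the start site), chr2:75704813-75704913 (minus strand, Nfe2l2, 240 bases before) and chr10:82859068-82859168 (plus strand, Txnrd1, 92 bases before).
Gclm upstream: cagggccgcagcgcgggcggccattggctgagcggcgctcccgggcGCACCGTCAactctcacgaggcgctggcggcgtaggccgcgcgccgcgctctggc
Nfe2l2 upstream: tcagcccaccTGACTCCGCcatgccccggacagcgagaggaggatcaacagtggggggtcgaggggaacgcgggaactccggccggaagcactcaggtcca
Txnrd1 upstream: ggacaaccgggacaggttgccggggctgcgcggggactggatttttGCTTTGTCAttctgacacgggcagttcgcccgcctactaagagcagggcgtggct

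After filtering, 5698 cells remained, between 454 and 1000 per library, with median depths between 2607.5 and 5642.5 UMIs per cell. Any pair of libraries shared at most 2 cell barcodes. Clusters were named from marker lists, and the 10 genes and their pathway lists were held out of the clustering. The myeloid cells fell into 376 microglia-like and 450 macrophage-like cells, called TAM I and TAM II (tumour-associated microglia and macrophages) where they came from tumour-bearing brain. The microglia list summed to 37575 counts per 1000000 UMIs of the class (CPM) in microglia-like and 9901 in macrophage-like cells, and the macrophage and monocyte list to 2648 and 29515. TAM I numbered 63, 5 and 20 cells in the WT early, intermediate and late libraries and 23, 44 and 21 in the KO libraries, and TAM II 117, 17 and 26 against 84, 89 and 116. The WT intermediate values of TAM I thus rest on 5 cells and 17374 UMIs.

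Acod1 was a gene of TAMs in these data. In TAM I of the WT early library it stood at 232 CPM (64 UMIs, exact Poisson 95% interval 179 to 297), and in TAM II of the same library at 127 (76 UMIs, 100 to 159). Levels in TAM I were 115 and 33.7 CPM at the WT intermediate and late stages, on 2 and 3 UMIs, and 0, 6.73 and 37.8 at the KO early, intermediate and late stages, on 0, 1 and 3 UMIs. Only the WT early library was well above the counting error of the other TAM I values, apart from the 2 UMIs at the WT intermediate stage, whose interval contains it. In TAM II the WT intermediate and late libraries held 34.2 and 8.94 CPM (3 and 1 UMIs), and the KO early, intermediate and late libraries 63.4, 13.1 and 63.4 (27, 5 and 30 UMIs). The genotypes overlapped in both classes. The WT early library also had the highest mitochondrial share of UMIs, 7.64% in TAM I and 5.64% in TAM II against 1.23% to 4.74% in TAMs of the other tumour-bearing libraries, and its part in the Acod1 level was not tested. All intervals cover counting error only, since each group is 1 library.

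**Figure D1:**
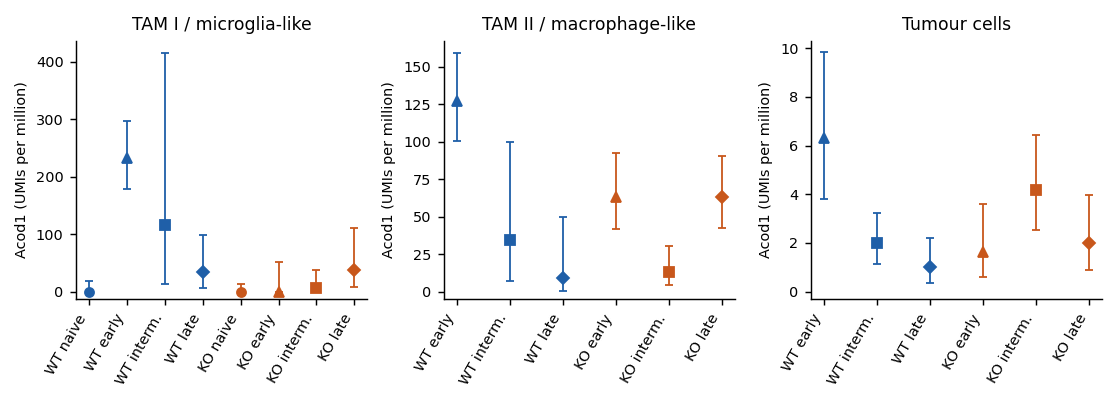
Acod1 level in CPM (vertical axis, linear, with a scale of its own in each panel) for each library in microglia-like, macrophage-like and tumour cells, with exact Poisson 95% intervals. The WT early library reaches 232 in TAM I and 127 in TAM II, the naïve libraries are at 0, and no library exceeds 6.30 in tumour cells.

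Microglia-like cells of naïve brain held no Acod1 UMI among 199887 (WT) and 287839 (KO), which together allow up to 6.15 CPM. Pooled over the tumour-bearing libraries, TAM I had 107 CPM, at least 17.4-fold higher than that limit. Without the WT early library 9 UMIs remained, at 22.2 CPM, at least 3.61-fold higher. The other classes held little: 0 of 70566 UMIs in dendritic-like cells, which allows up to 42.5 CPM, 2 UMIs in oligodendrocytes, and 0 in lymphocytes, endothelial cells and astrocytes.

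Counted by cell, 29.1% of the 117 TAM II of the WT early library had an Acod1 UMI (exact binomial 95% interval 21.0 to 38.2), and 20.6% of the 63 TAM I (11.5 to 32.7). After thinning each cell to 1500 UMIs these shares were 14.3% and 12.8%. In TAM II of the KO libraries they were 14.3% early, 4.49% intermediate and 14.7% late, and 7.14% and 8.05% after thinning at the early and late stages. Lymphocytes, which should lack the transcript, had it in 0 of 188 cells (up to 1.60%) at a median of 2959.5 UMIs per cell, against 3253 in macrophage-like cells. The UMIs were not spread as single counts: 16 TAM II and 11 TAM I of the WT early library held 2 or more, up to 7 and 20 in 1 cell, and 7 and 10 TAM II of the KO early and late libraries did.

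Within TAM I of the WT early library, 61 of the 64 Acod1 UMIs came from 1 cluster of 31 cells led by Cst7, Ccl12, C1qc and C1qa, and there from 12 cells. These 12 cells had a microglia list of 27240 CPM and a macrophage and monocyte list of 8654, with P2ry12, a homeostatic microglia receptor, at 186 CPM, Lyz2, a lysozyme of macrophages, at 6072, and Arg1 and Ly6c2 at 0. The 19 cells of the cluster without an Acod1 UMI had lists of 29860 and 6432 CPM, with P2ry12 at 516 and Lyz2 at 4276. The other 32 TAM I of this library stood at 1924 CPM for P2ry12 and 481 for Lyz2, and TAM II at 40.2 and 23190. For P2ry12 and Lyz2 the cluster as a whole, with or without Acod1, lay between the other TAM I and TAM II. With a minimum of 500 genes per cell, 25 of the 31 cells, with all 61 UMIs, were named macrophage-like instead, which left TAM I at 31.0 CPM and raised TAM II to 183 in the WT early library. Under the 4 other ways of clustering all 31 stayed microglia-like.

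Tumour cells held 1.02 to 6.30 CPM of Acod1 in the 6 tumour-bearing libraries, on 6 to 20 UMIs. Taken as a share of the TAM level of the same library this was 3.03% to 5.11%, apart from the KO intermediate library at 37.0%, where all 20 UMIs lay in 1 cell of 35042 UMIs. In the WT early library 13 of 19 UMIs lay in 1 cell of 54312 UMIs. The macrophage marker list in tumour cells stood at 0.52% to 3.64% of its TAM level and the microglia list at 4.88% to 20.9%. Tumour cells with an Acod1 UMI were the deeper ones, with medians of 8325.5 to 39172 UMIs per library against 3532 to 5829 in the others. How much of the tumour cell signal is free RNA or a second cell in the droplet was not tested. In the edgeR quasi-likelihood test across the 6 libraries, Acod1 was lower in tumour cells than in TAMs by a log2 fold change of -4.49 (SE 0.40, adjusted p = 3.2e-07). It passed the count filter there through the TAM sums (11.3 to 160 CPM). The direction was thus largely set in advance, and the test adds little to the levels themselves.

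Between genotypes the Acod1 level differed in opposite directions by stage in TAM II. The log2 ratio of KO to WT was -1.01 at the early stage (counting interval -1.70 to -0.36), -1.39 at the intermediate stage (-3.75 to 1.30) and 2.83 at the late stage (0.24 to 8.18), the last against a single WT UMI. Over the 3 stages edgeR gave -0.30 (SE 0.58, adjusted p = 1.00), and leaving out 1 library moved it between -1.12 and 0.94. In TAM I of the early stage, 0 of 70963 KO UMIs stood against 64 in the WT library, a limit of 42.3 CPM against 232. With a minimum of 500 genes per cell, 61 of these WT UMIs fell in cells named macrophage-like instead, so this contrast depended on that setting.

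The 47 TAMs of the WT early library with an Acod1 UMI and the 133 without were compared gene by gene, to list what else the same cells carried. The cells with Acod1 were deeper, with a median of 5217 against 2763 UMIs, so each cell was thinned to 1500 UMIs. The 15 genes with the largest difference in the share of cells were Msr1, Cxcl10, Nfkbia, AW112010, Ccl5, Iigp1, Il1rn, Cstb, Clec7a, Gbp2, Tnfaip2, Prdx5, Pla2g7, Cxcl2 and Fcgr2b, among 1052 genes found in at least 20% of the Acod1-positive cells. Msr1, a scavenger receptor, was found in 63.5% of cells with and 33.1% of cells without Acod1. Cxcl10, an interferon-induced chemokine, was at 47.3% and 18.4%. Nfkbia, which encodes the inhibitor IκBα and is itself an NF-κB target, was at 79.0% and 53.0%. The chemokine gene Ccl5, the interferon-inducible GTPase genes Iigp1 and Gbp2 and the interleukin 1 antagonist gene Il1rn were on the list as well.

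The list mixes both TAM classes, and 11 of 12 macrophage and monocyte markers had a higher share in the Acod1-positive cells. Within TAM II alone (34 cells with, 83 without) 9 of the 15 genes were among the top 15 and all 15 had a higher share with Acod1. Within TAM I alone (13 and 50) 5 were in the top 15 and all 15 were higher. Of these 13 cells 12 lay in the cluster led by Cst7, against 19 of the 50. The TAM I gaps thus also set that cluster against the other TAM I. Both subsets are parts of the cells in which the 15 were chosen, so these counts are no independent check. In the KO early library 13 of the 15 and in the KO late library 14 of the 15 were higher, on 12 and 19 Acod1-positive cells. In each, 2 genes were shared with the top 15. No share over all genes stands beside these KO counts. Without thinning none of the 15 were in the top 15, whose first genes were then Sod2, Fcgr4 and C3. No test was made between single cells of 1 library, and over all genes the median difference was 0, or 2.61 percentage points among the 1052.

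**Figure D2:**
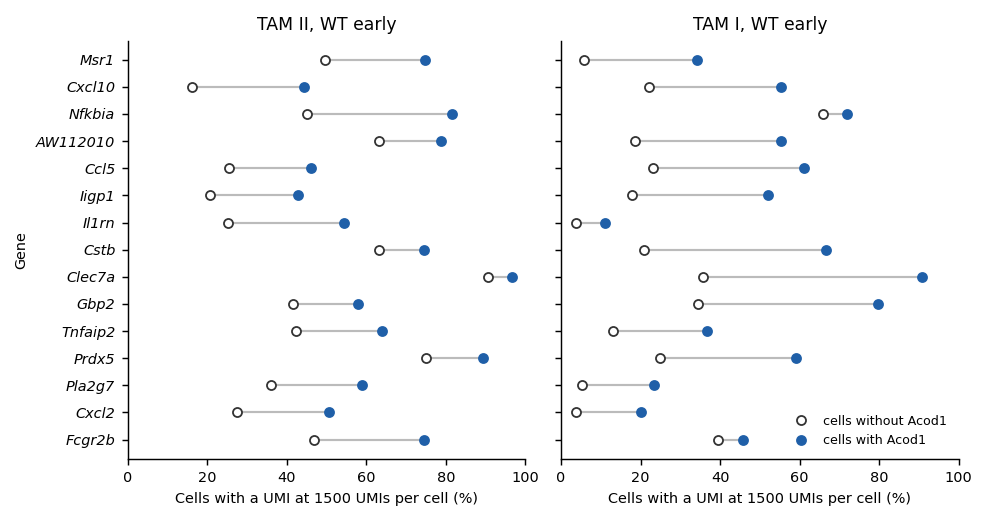
Share of WT early cells with a UMI of each gene after thinning to 1500 UMIs per cell (horizontal axis, percent), in cells with Acod1 (filled) and without (open), for TAM II on the left and TAM I on the right. The 15 genes were chosen by their difference in these same cells. All 15 have the higher share in cells with Acod1 in both panels, with the widest gap for Nfkbia in TAM II and for Clec7a in TAM I.

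Among the other members, Nfkbiz was found in 44.6% of the Acod1-positive and 32.0% of the Acod1-negative cells, Nfe2l2 in 73.9% and 65.2%, and Sdhb in 31.0% and 22.4%. Txnrd1 stood at 26.6% and 23.4%, Hmox1 at 5.38% and 6.12% and Sdha at 7.26% and 12.5%. Of the 12 detected LPS-inducible macrophage genes 10 had a higher share in Acod1-positive cells, and Ccl3 and Ccl4 a lower one. Of the 12 genes of the NF-κB and IκB family 8 were higher, and of the 18 other NRF2 target genes 12, while 33.0% of all genes were. The 33.0% covers all genes, whose median difference was 0, so it is no like background for these lists of detected genes. The median differences of the 3 lists were 5.03, 2.94 and 2.18 percentage points, beside the 2.61 among the 1052 genes. That of the NRF2 targets thus lay below the 2.61. Of the 9 other members 6 had a higher and 3 a lower share in the pooled TAMs (median 1.24 percentage points), but within TAM II alone 3 were higher and 6 lower (median -0.51), and within TAM I alone 6 were higher and 2 lower.

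Sdha and Sdhb, the catalytic flavoprotein and iron-sulphur subunits of succinate dehydrogenase, were found in every main cell class. Sdha was highest in choroid plexus epithelial-like cells (193 to 274 CPM over 3 libraries), neuron-like cells (123 to 333) and astrocytes (52.6 to 302), whose ranges overlap. In TAM II it was 92.2, 57.0 and 98.3 CPM in the WT early, intermediate and late libraries and 106, 78.3 and 110 in the KO libraries, and in tumour cells it lay between 37.1 and 46.8. All TAM II values exceeded all tumour values, and Sdha was lower in tumour cells than in TAMs (log2 fold change -1.39, SE 0.16).

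Sdhb did not follow Sdha. In tumour cells it was 259, 266 and 265 CPM in the WT libraries and 367, 295 and 311 in the KO libraries, against 258, 126 and 223 and 333, 292 and 355 in TAM II. Tumour cells and TAMs did not differ beyond the spread between libraries (log2 fold change -0.01). TAM II stood above TAM I (0.53, SE 0.19, adjusted p = 0.0431), a call lost without the WT early, KO intermediate or KO late library and with DESeq2 (adjusted p = 0.0718). The 3 KO values exceeded the 3 WT values in TAM II and in tumour cells. How many of all genes were separated in this way, here and for Keap1 and Nfe2l2 below, was not counted. The log2 fold change of KO over WT was 0.69 in TAM II (SE 0.31, adjusted p = 1.00), 0.93 in TAM I (adjusted p = 0.996) and 0.34 in tumour cells (adjusted p = 0.881), none of which passed the correction.

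**Figure D3:**
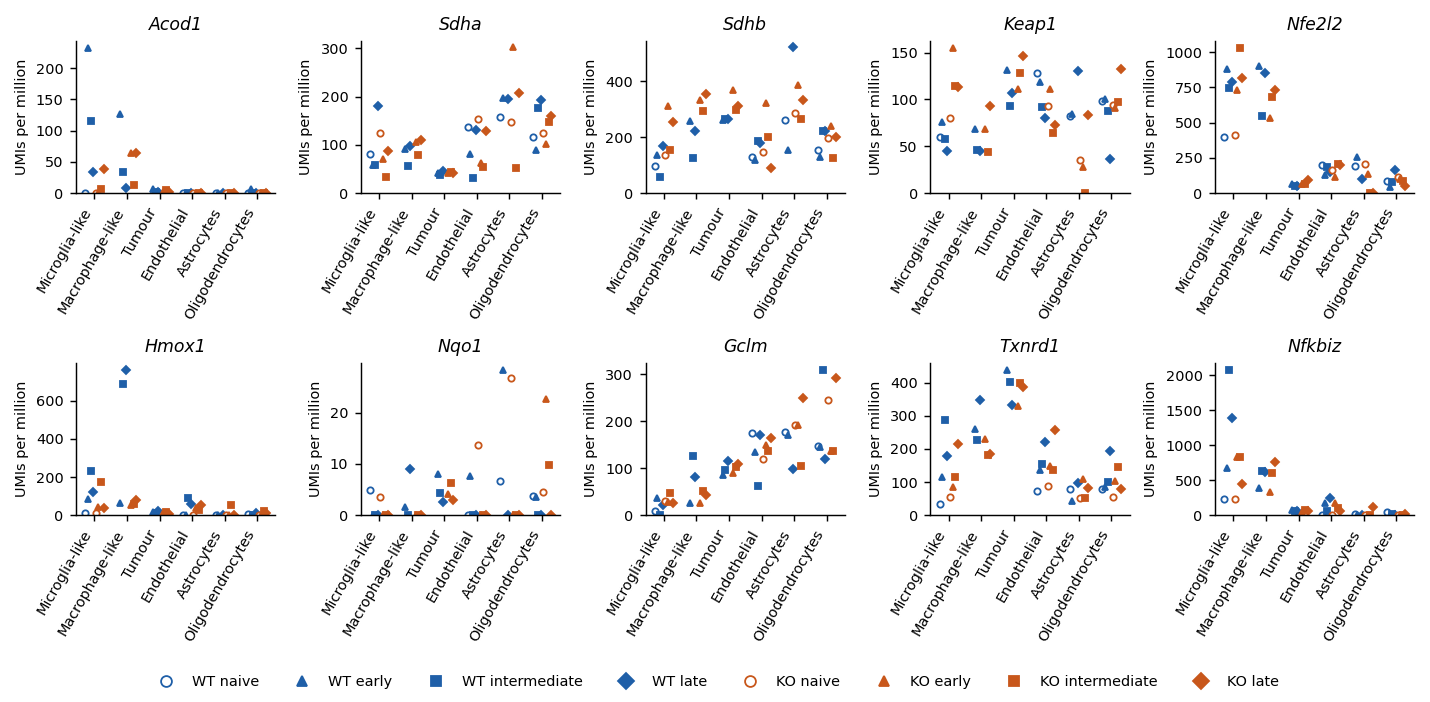
Level of each of the 10 genes in CPM (vertical axis, linear, with a scale of its own in each panel) in 6 cell classes, 1 point per library with at least 5 cells of the class. WT is blue, KO orange, naïve libraries open circles. Among these 6 classes Acod1, Nfe2l2 and Nfkbiz stand highest in the myeloid classes and Txnrd1 in tumour cells.

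Keap1, the sensor of the pathway, showed no myeloid pattern. It was 68.7, 45.6 and 44.7 CPM in TAM II of the WT early, intermediate and late libraries and 68.1, 44.4 and 93.0 in the KO libraries. Tumour cells stood at 132, 93.5 and 107 in WT hosts and 111, 128 and 146 in KO hosts, and were higher than TAMs by 0.51 on the log2 scale (SE 0.15, adjusted p = 0.00748). That call was lost when the WT early, WT intermediate, WT late or KO intermediate library was left out. In TAM I the KO libraries (155, 114 and 114 CPM) lay above the WT libraries (76.2, 57.6 and 45.0), on 11, 17 and 9 against 21, 1 and 4 UMIs, and the gene was too low for the test.

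Nfe2l2 was a myeloid gene. Microglia-like cells ranged from 400 to 1029 CPM over the 8 libraries and macrophage-like cells from 531 to 905 over 6, while endothelial cells, the next class, ranged from 111 to 209. In tumour cells it was 63.6, 47.6 and 53.1 CPM in WT hosts and 67.2, 63.9 and 95.6 in KO hosts, and the log2 fold change of tumour cells over TAMs was -3.79 (SE 0.17). All 3 KO values were above the WT values there, without passing the correction (0.50, SE 0.19, adjusted p = 0.723). The naïve microglia-like cells, at 400 (WT) and 410 (KO), lay below all 6 tumour-bearing libraries, which started at 733.

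Hmox1 encodes haem oxygenase 1, the NRF2 target that degrades haem. Its order was macrophage-like cells (51.7 to 760 CPM), microglia-like cells (10.0 to 230) and endothelial cells (0 to 92.5), with overlapping neighbours. In TAM II it was 63.7 CPM in the WT early library, 685 in the WT intermediate and 760 in the WT late library, against 51.7, 57.4 and 78.2 in the KO early, intermediate and late libraries. The WT intermediate and late libraries stood far above the other 4, while the WT early library did not differ from KO early beyond counting error (log2 ratio -0.30, interval -1.13 to 0.49). Over the 3 stages the fold change of KO over WT was -2.49 (SE 0.48, unadjusted p = 9.9e-05), the sixth smallest p of 5660 genes, and it missed the threshold (adjusted p = 0.0854).

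The WT values rested on few cells. In the WT intermediate library 46 of the 60 UMIs lay in 1 of 17 cells, and without it the level was 181 CPM. In the WT late library 8 of 26 cells had a UMI, 5 of them 5 or more and the highest 32, and the level without that cell was 525. No TAM II of a KO library held more than 7. The same difference passed with DESeq2 (adjusted p = 0.00541), with at least 500 genes per cell (0.0481), without the filter on low counts (2.89e-07) and when the WT early, WT intermediate or KO early library was left out. The tumour marker list stood at 1061 and 804 CPM in TAM II of the WT intermediate and late libraries and at 191 to 311 in the other 4, whereas tumour cells themselves held only 8.30 to 20.2 CPM of Hmox1. Red blood cell markers lay between 0 and 35.2 CPM in TAM II. The make-up of TAM II differed too. In the late libraries a cluster led by Arg1, Lyz2 and Cxcl2 held 34.6% of the WT and 0.86% of the KO cells, one led by Arg1, Spp1 and Lyz2 11.5% and 34.5%, and one led by Ccl17, Il1b and Plet1 23.1% and 5.17%. In the cluster led by Arg1, Spp1 and Lyz2, late Hmox1 was 1854 CPM in WT (19 UMIs, 3 cells) and 71.8 in KO. In that led by Arg1, Cxcl2 and Lyz2, in that order, it was 1667 (64 of 85 UMIs, 3 cells) and 43.9. It was higher in KO in the Ccl17-led cluster (0 and 158) and that led by Arg1, Lyz2 and Cxcl2 (37.6 and 1969). So it was in that led by Arg1, Il1b and Ly6c2 (0 and 37.5), all on at most 7 UMIs. The part of the tumour markers, red blood cell markers and make-up in the result was not tested.

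**Figure D4:**
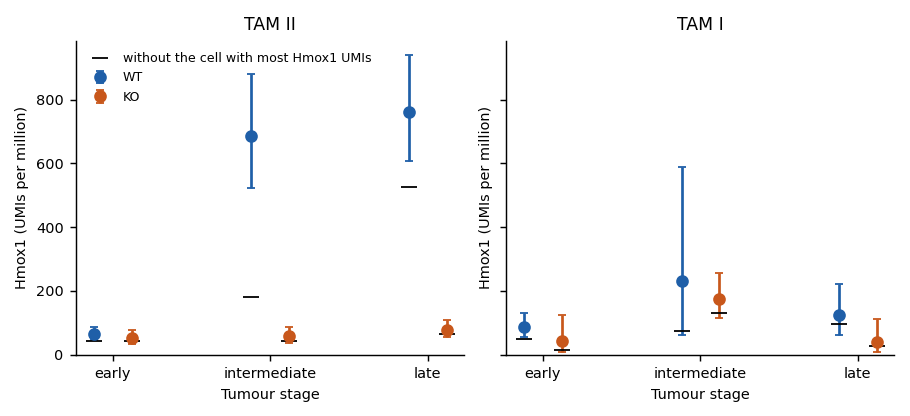
Hmox1 level in CPM (vertical axis) by tumour stage in TAM II (left) and TAM I (right), WT blue and KO orange, with exact Poisson 95% intervals. Black bars give the level without the cell that holds the most Hmox1 UMIs; in TAM II the WT intermediate value falls from 685 to 181 and the WT late value from 760 to 525.

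In TAM I, Hmox1 was 87.1, 230 and 124 CPM in the WT early, intermediate and late libraries and 42.3, 175 and 37.8 in the KO libraries, lower in KO at each stage on 3 to 26 UMIs (-0.997 over the stages, adjusted p = 0.996). Naïve microglia-like cells held 10.0 and 10.4 CPM on 2 and 3 UMIs, below all 6 tumour-bearing libraries.

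Nqo1, a quinone reductase gene and a classical NRF2 target, was nearly absent from myeloid cells, with 2 UMIs in all TAM II, 0 in TAM I and 2 in naïve microglia-like cells. In tumour cells it was 7.95, 4.25 and 2.55 CPM in WT hosts and 4.11, 6.26 and 3.02 in KO hosts. Choroid plexus epithelial-like cells held 68.5 and 71.2 CPM in the WT and KO naïve libraries, on 9 and 7 UMIs, but 0 of 20753 UMIs in 8 cells of the KO intermediate library, so that this class had the highest mean over its 3 libraries and a range that overlapped the next class. Whether TAMs and tumour cells differ could not be tested, since it did not pass the count filter there.

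Gclm encodes the modifier subunit of glutamate-cysteine ligase, which makes the first product on the way to glutathione. It was highest in ciliated ependymal-like cells (194 to 294 CPM), oligodendrocytes (120 to 308) and astrocytes (97.7 to 249). TAM II held 25.1, 126 and 80.4 CPM in the WT libraries and 25.8, 52.2 and 42.3 in the KO libraries, and tumour cells 85.5 to 115 in all 6. The gene was higher in tumour cells than in TAMs (0.90, SE 0.21, adjusted p = 0.00174).

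Txnrd1, the gene of cytosolic thioredoxin reductase, had its highest mean in neuroblast-like cells (306 to 615 CPM over 3 libraries), whose range overlapped that of tumour cells. It stood at 439, 402 and 333 CPM in tumour cells of WT hosts and at 330, 398 and 387 in those of KO hosts. In TAM II it was 261, 228 and 349 in WT and 230, 183 and 184 in KO. Tumour cells exceeded TAMs (0.56, SE 0.14, adjusted p = 0.00273), a call lost without the KO intermediate library. The rise from naïve microglia-like cells, at 35.0 and 55.6 CPM, to TAM I, at 84.6 to 288, left no overlap.

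Nfkbiz had its highest levels in microglia-like cells (230 to 2072 CPM), macrophage-like cells (333 to 763) and dendritic-like cells (311 and 665), and lymphocytes followed at 47.7 to 213. In TAM I it was 675, 2072 and 1383 CPM in the WT early, intermediate and late libraries and 831, 834 and 441 in the KO libraries, and in naïve microglia-like cells 230 and 236. TAM II held 394, 628 and 617 in WT and 333, 603 and 763 in KO. TAM II was below TAM I (-0.82, SE 0.24, adjusted p = 0.0158). The call was lost without the KO early or WT late library, with 500 genes per cell or without the count filter, and the value stayed between -1.10 and -0.66 with any library left out. Tumour cells, at 39.5 to 70.0 CPM, were far below TAMs (-3.76, SE 0.16).

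Naïve and tumour-bearing microglia-like cells were compared next. Of 8 members tested, 5 were higher in the tumour-bearing libraries and none lower, against 16.6% of all 3248 genes called (9.85% higher and 6.71% lower). The 5 were Hmox1 (3.31, SE 0.71, adjusted p = 0.00417), Nfkbiz (2.00, SE 0.42, adjusted p = 0.00346), Txnrd1 (1.68, SE 0.43, adjusted p = 0.0135), Nfe2l2 (1.09, SE 0.33, adjusted p = 0.0319) and Acod1. Acod1 passed the count filter only through the tumour-bearing libraries, with 64 of its 73 UMIs in WT early and 0 in KO early, so its call adds nothing to the bound given above. Hmox1 (10.0 and 10.4 CPM in the naïve libraries) and Txnrd1 (35.0 and 55.6) also passed it only through the tumour-bearing libraries. A gene that passes in this way can hardly be called lower, so the count of 5 is no measure of the members as a set. Sdhb, Keap1 and Sdha had log2 fold changes of 0.72, 0.49 and -0.38 that did not pass. With only 2 naïve libraries, leaving out either ended all 5 calls, and Nfe2l2 was also lost without the WT early or KO intermediate library.

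Pathway partners of the members were counted in the same comparison. Of the other NRF2 target genes 4 of 9 tested rose, among them Txn1 (thioredoxin, 65.6 CPM in naïve and 328 in tumour-bearing libraries), Fth1 (ferritin heavy chain, 2262 and 8689) and Sqstm1 (an autophagy receptor that also binds KEAP1, 172 and 375), and the median of the list was 0.87 against 0.02 for all genes. Of the LPS-inducible genes 7 of 9 rose, including Il1b (2.05 and 1529 CPM) and Tnf (18.4 and 638), the first on 1 UMI in the naïve libraries. Of the NF-κB family 4 of 9 rose, namely Nfkbia, Nfkbid, Atf3 and Tnfaip3, the last the gene of the inhibitor A20. Of the proteins reported as itaconate targets the genes Nlrp3, Aldoa and Ldha rose, 3 of 6 tested, and of 5 NRF2 regulators Maff (2.05 and 115 CPM, 1 naïve UMI). Txn1, Il1b, Tnf and Maff were too low in the naïve libraries to pass the count filter without a tumour-bearing library, so their direction was largely set in advance. Leaving out either naïve library ended the calls of Fth1, Sqstm1, Nfkbia, Nfkbid, Atf3, Tnfaip3, Nlrp3, Aldoa and Ldha, and leaving out the KO naïve library those of Txn1 and Maff, while Il1b and Tnf stayed called. None of the 10 other SDH and TCA cycle genes and not the 1 tested gene of itaconate handling passed.

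Between TAM II and TAM I, 6 members were tested, and 1 (Sdhb) was higher and 1 (Nfkbiz) lower in TAM II, while 30.6% of all 2369 genes were called (15.4% higher, 15.1% lower). Txnrd1 missed the threshold (0.63, adjusted p = 0.0522), and Nfe2l2, Hmox1 and Sdha had values of -0.31, 0.40 and 0.28. The other NRF2 target genes leaned to TAM II, with 5 higher and 1 lower of 8, among them Txn1 (1.43, SE 0.16), Prdx1 (a peroxiredoxin, 1.05, SE 0.19) and Fth1 (0.96, SE 0.15) on one side and Sqstm1 (-0.80, SE 0.16) on the other. The genes Ldha and Aldoa, whose glycolytic enzymes are reported itaconate targets, were higher in TAM II (1.08 and 0.48, 2 of 5 tested), as was Mdh2 of the TCA cycle (0.72, 1 of 5), and the NRF2 partner gene Mafg was lower (-0.94, 1 of 4). These calls depended on single libraries except for Ldha: that of Aldoa was lost without the KO early, intermediate or late library, that of Mdh2 without the WT early, WT late or KO intermediate library, and that of Mafg without the WT late library. The LPS-inducible genes divided, with Cxcl2 higher in TAM II (4.49, SE 0.47) and Ccl3, Ccl4 and Tnf lower (-3.59, -3.33 and -3.03).

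Between tumour cells and TAMs, 9 members were tested, 3 were higher (Gclm, Keap1 and Txnrd1) and 5 lower (Acod1, Hmox1, Nfe2l2, Nfkbiz and Sdha) in tumour cells. Of these, Acod1 passed the count filter through its level in TAMs, so its direction was largely set in advance. The comparison called 62.7% of all 11616 genes (38.4% higher and 24.3% lower), and the median of all genes was 0.29. Hmox1 differed by -3.74. All 12 other genes of the NF-κB and IκB family were lower in tumour cells, for example Rel (-3.65, SE 0.18) and Nfkbia (-3.62, SE 0.18). Of the other NRF2 target genes 13 of 17 were lower, led by Fth1 (-3.60), Slc7a11 (a cystine transporter, -3.37) and Ftl1 (ferritin light chain, -2.61), and 3 were higher. Of 15 other SDH and TCA cycle genes 5 were higher, among them Idh3a (1.42, SE 0.15), and 3 lower. Of 6 NRF2 regulators 1 was higher and 3 lower, among them Bach1, a repressor at the same response elements (-2.70, SE 0.16). Of 8 genes of reported itaconate targets 6 were lower, led by the inflammasome gene Nlrp3 (-7.26), and of 6 genes of itaconate handling 2 (Suclg2 and Sucla2, subunits of succinyl-CoA synthetases) were higher, Suclg2 not without the WT intermediate, WT late or KO intermediate library. Gclm and Txnrd1 thus did not take the direction of most of the list.

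**Figure D5:**
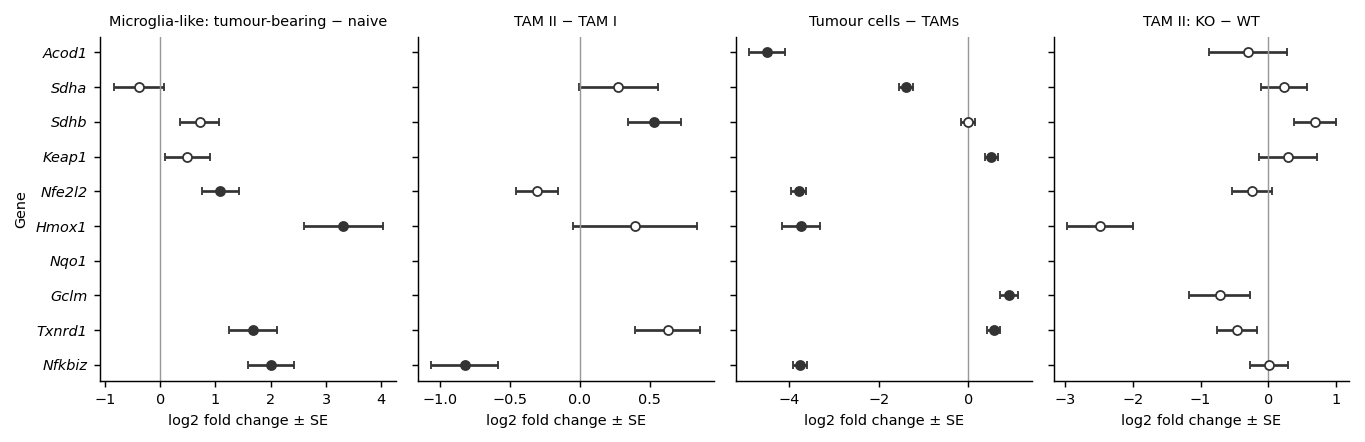
Log2 fold change with its standard error (horizontal axis, with a range of its own in each panel) of each member tested in 4 comparisons, filled where the adjusted p was below 0.05. Members that did not pass the count filter have no point, and Acod1 is left out of the first panel because its naïve libraries are at 0. The 3 members higher in tumour cells than in TAMs are Keap1, Gclm and Txnrd1, and no member is filled in the comparison of KO with WT.

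In endothelial cells 1 of 7 members tested was called between tumour-bearing and naïve libraries, against 7.64% of 3154 genes. This was Nfkbiz (4.84, SE 0.81, adjusted p = 0.00666), at 54.8 to 250 CPM in tumour-bearing libraries and 0 and 8.19 in naïve ones, and the call was lost without the WT naïve library. Nfkbiz passed the count filter only through the tumour-bearing libraries, so the direction of its call was largely set in advance. Of its 100 UMIs in tumour-bearing libraries, 73 lay in 39 of 128 cells with more UMIs of mural cell and fibroblast markers than of endothelial markers. Pooled, 100 UMIs stood against 3, a ratio of 36.1 with a counting interval of 11.99 to 178. Without these cells the level was 86.3 CPM against 4.69. Hmox1 was at 0 UMIs in naïve and 19 in tumour-bearing endothelial cells, at least 6.85-fold higher, 14 of the 19 in the same 39 cells. Among the lists Abcg2, an exporter gene listed under itaconate handling, was lower (965 CPM in naïve and 398 in tumour-bearing libraries), and Atf3, Ptgs2, Socs3 and Ccl5 were higher, all 5 calls being lost without either naïve library. Ptgs2, Socs3 and Ccl5, at 4.33, 17.3 and 0 CPM in the pooled naïve libraries, likewise passed the filter only through the tumour-bearing ones. In astrocytes 1 member (Sdhb) was tested and not called, against 1.31% of genes, and in oligodendrocytes none of 6, against 2.33%. Of the lists only Txn1 was called there, higher in tumour-bearing oligodendrocytes (61.3 and 213 CPM), and not without the KO naïve library. Its naïve level was too low to pass the count filter without a tumour-bearing library.

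Between KO and WT, no member was called in any class. The test was made on 9 members in TAM II, 5 in TAM I and 9 in tumour cells, and it called 0.0883%, 0.00% and 0.0146% of all genes, that is 5, 0 and 2 genes. In TAM I edgeR found 59 genes at an unadjusted p below 0.05 and DESeq2 called 1. In TAM II the called genes were Igf1, Ccl8, Arg1, Syngr1 and Gbp2b, and in tumour cells Fam13c and Arg1, none a member or a gene of the pathway lists. Arg1 is on the macrophage and monocyte marker list. That list stood at 860 CPM in tumour cells of the KO late library and at 119 to 253 in those of the other tumour-bearing libraries. Doublets were left in, and the part of myeloid RNA in the Arg1 call of tumour cells was not tested. Among the members 2 in TAM II (Hmox1 and Sdhb), 1 in TAM I (Sdhb) and 1 in tumour cells (Nfe2l2) had an unadjusted p below 0.05. No gene of the 7 pathway lists was called in the 3 comparisons. The 3 libraries per genotype come from 1 mouse each at different stages, so no stage has replicate mice of a genotype. The p-values rest on how the KO to WT difference varied over the stages, with dispersion shared across genes. That variation cannot be told apart from differences between mice, or from sex, which differed between genotypes at the early and intermediate stages.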

How the data were processed

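Gene expression was measured by Drop-seq in 8 libraries. The deposited tables hold raw UMI counts, made by the authors from 3′ reads by the Drop-seq pipeline, without normalization, for 3000 barcodes per library. Per the submitters' processing notes bcl2fastq 2.0 and STAR were used on GRCm38 (mm10), and the STAR version is not given in the sources used here. The filters of the methods were applied, namely the top 1000 barcodes by UMIs in each library, a minimum of 30 cells for a gene and a minimum of 1000 genes for a cell. Clustering used 50 principal components of log2(CPM + 1) by tSNE (perplexity 50, Rtsne 0.17, R 4.3.3) and HDBSCAN (at least 19 cells, scikit-learn 1.9.0), without 88 listed genes. A cluster that mixed both myeloid marker lists was split by the Leiden method (resolution 2), and unassigned cells joined the majority of their 15 nearest. Doublets were left in, and their removal by Scrublet (scanpy 1.11.5) was an alternative, with the top 5% of scores taken in libraries where fewer than 0.5% of cells were marked. The authors' cell names were not used, so values can differ from the study's for that reason.

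UMIs were summed per library and class with at least 5 cells and tested with edgeR 4.0.16 (TMM, filterByExpr, quasi-likelihood) with calls at 0.05 after Benjamini-Hochberg adjustment: tumour-bearing against naïve libraries with genotype as covariate, classes within libraries, and KO against WT with stage as covariate. The tests were tried on simulated counts, drawn from the fitted dispersion trend. Genes raised there had median estimated log2 fold changes of 1.89 to 2.03 by comparison. Of the changed genes 64.5% to 87.0% were called, and 0.77% to 7.05% of the calls were false. These shares do not give the power for smaller changes or for a wider spread of single genes. Labels call the libraries separate samples from 1 mouse each (2 named for naïve). Levels are CPM (counts per 1000000 UMIs of the class) with exact Poisson 95% intervals, ratios and shares have exact binomial ones, and 0 is given as a limit of 3 counts. Shares were thinned to 1500 UMIs. Fewer UMIs of a gene in a class can mean fewer expressing cells or less per cell.

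The members and lists were chosen with earlier results of these data known. Named were all 10 members, at most 4 called genes per list and comparison by smallest p, and the 15 co-detected genes with the largest difference. Genes named outside that rule (the genes called between KO and WT, cluster markers and the 3 genes named without thinning) were chosen after their values were seen. Alternatives were another tSNE seed, Leiden clustering (leidenalg 0.10.2), 500 genes per cell, clustering with all genes, doublets removed, DESeq2 1.42.0, no count filter, at least 10 cells per sum, no stage term, and each library left out. One, TAM II without the cluster led by Ccl17, was added after seeing the data.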

Additional observations from a re-analysis of the deposited data

Results flagged for a closer look

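In microglia-like cells of the WT late library Sdha stood at 180.0 CPM, apart from the other 5 tumour-bearing libraries, of which the next reached 88.3, on 16 UMIs. Gclm in endothelial cells of the WT intermediate library was the lowest, at 61.7 CPM on 2 UMIs of 6 cells, with the next at 134. These were the libraries that stood apart among 22 pairs of a member and a class, and chance gives about 1 in 20. The barcodes that the cell filter removed also held Acod1: 29.0 CPM in the WT early library (38 UMIs, interval 20.6 to 39.9), 7.88 in the KO early library (14 UMIs) and 7.18 in the KO late library (11 UMIs), against 0.701 in those of the naïve libraries (2 UMIs). What kind of droplets the barcodes are was not tested.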

How the results depend on the processing

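The clearest limits are the 1 library per group, the 2 naïve libraries on which every tumour-bearing against naïve test rests, the 5 TAM I of the WT intermediate library and the few UMIs behind single Acod1 values. Of 528 member values under other settings 499 kept their direction and side of the threshold, as did 329 of 397 with a library left out, and 54 of 60 Acod1 levels stayed within their intervals. Causes of the changes below were not tested.

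The number of genes called moved as follows. TAM II against TAM I gave 724 genes, 1112 with 500 genes per cell, 1512 without the count filter and 480 to 964 with a library left out. Tumour cells against TAMs gave 7282 (6290 to 6910 with a library left out). Tumour-bearing against naïve microglia-like cells gave 538, 246 with 500 genes per cell, and 22 to 644 with a library left out. Endothelial cells gave 241, 61 with doublets removed, 559 without the filter and 3 to 388 with a library left out. Astrocytes gave 9, 32 with 500 genes per cell, 14 with DESeq2, 59 without the filter, 17 with at least 10 cells per sum and 7 to 23 with a library left out, and oligodendrocytes 61, 222 without the filter and 3 to 87. KO against WT in TAM II gave 5, 0 when clustered with all genes, without the stage term or without the Ccl17-led cluster, 11 with 500 genes per cell, 9 with DESeq2, 54 without the filter and 4 to 82 with a library left out. TAM I gave 0, 7 with 500 genes per cell, 1 with DESeq2, 3 without the filter and 0 to 42. Tumour cells gave 2, 0 with another seed or without the stage term, 1 with doublets removed, 68 with DESeq2 and 4 to 146.

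The Acod1 level in TAM I of the KO late library was 0 with another seed, with 500 genes per cell and with all genes, and with 500 genes per cell TAM I stood at 31.0 CPM (WT early) and 0 (WT late) and TAM II of WT early at 183. Of the 15 co-detected genes 9 stayed among the first 15 in macrophage-like cells alone and 0 without thinning.

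Only members that were not called changed sign. Without the count filter these were Nfe2l2 between TAM II and TAM I (0.021), Sdhb between tumour cells and TAMs (0.11) and Sdhb in astrocytes (-0.31, and -0.017 with 500 genes per cell). Gclm in endothelial cells gave 0.0047 with Leiden clustering, 0.019 with doublets removed and 0.072 with at least 10 cells per sum. Between KO and WT, Nfkbiz in TAM II gave -0.023 with another seed, -0.0058 with Leiden clustering, -0.26 with 500 genes per cell and -0.053 without the Ccl17-led cluster, Nfe2l2 in TAM I -0.16 with 10 cells per sum, and in tumour cells Nqo1 -0.031 without the stage term and Txnrd1 0.0016 with doublets removed.

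With a library left out, values crossed 0 for Hmox1 between TAM II and TAM I (-0.18 to 0.69), Sdhb between tumour cells and TAMs (-0.30 to 0.055) and Sdha in microglia-like cells (-1.09 to 0.30). In endothelial cells Gclm ran from -0.42 to 0.27 and Nfe2l2 from -0.43 to 0.055, and in astrocytes Sdhb from -0.23 to 0.40. In oligodendrocytes Gclm ran from -0.43 to 0.28, Keap1 from -0.31 to 0.16, Nfe2l2 from -0.57 to 0.024 and Sdhb from -0.10 to 0.20. For KO against WT in TAM II the ranges were -1.12 to 0.94 (Acod1), -0.041 to 0.68 (Keap1), -0.50 to 0.12 (Nfe2l2) and -0.15 to 0.21 (Nfkbiz), in TAM I -0.17 to 0.33 (Nfe2l2), and in tumour cells -0.73 to 0.34 (Hmox1), -0.40 to 0.13 (Nfkbiz), -0.35 to 0.47 (Nqo1), -0.078 to 0.17 (Sdha) and -0.16 to 0.14 (Txnrd1). Mice could not be paired between groups, because each group holds 1 library and the labels give no replicate numbers to share. The fits of classes within libraries and of KO against WT already hold the library and the stage as terms.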
